A study of Mus musculus with 8 samples.

Results

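Klf4 is the gene removed in the knockout cells of this series, and Klf2 and Klf5 are its closest partners in mouse embryonic stem cells. These 3 genes were picked by symbol, mapped from their Ensembl identifiers, out of 52636 gene identifiers counted by RNA-seq. For chromatin contacts, their members were the anchors lying over a gene or within 100 kb of it, which came to 21 of 18293 anchors in knockout cells and 10 of 8373 in unmodified cells. The cells were E14, a male mouse embryonic stem cell line grown from the blastocyst, either KLF4-KO (KO) or unmodified (WT), with 2 RNA-seq libraries of each genotype that the labels call biological replicates. The KO libraries carry the letters B and F, and the WT libraries the numbers 1 and 2. RNA polymerase II HiChIP, which joins chromatin ends that lie close together and reads the joined ends pulled down with the polymerase as paired-end tags (PETs), was given as 1 file per genotype that mixes the replicates, called a pool here. All samples share 2 culture descriptions, both on gelatin with 15% serum. One of them adds 10 ng/mL LIF, the MEK inhibitor PD0325901 at 1 µM and the GSK inhibitor CHIR99021 at 3 µM, and the other adds LIF at 1000 U/mL without an inhibitor. The sources used here do not say how Klf4 was removed, or whether B and F come from a single edited clone.

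KLF4, KLF2 and KLF5 are transcription factors of the Krüppel-like family, which bind GC-rich and CACCC-type DNA through zinc fingers at their carboxyl end. In mouse embryonic stem cells they help to hold the naive state of the early epiblast, occupy many of the same sites near pluripotency genes, and are known to cover for each other when a single member is lost. LIF raises Klf4 through the kinase JAK1 and the factor STAT3, while signalling from FGF through MEK and ERK leads to loss of KLF2 and KLF4 protein. Outside the embryo KLF4 is best known from epithelia and from reprogramming, KLF2 from endothelium and T cells, and KLF5 from the gut and from proliferating epithelium.

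The stretches before the starts of Klf4 and Klf2 are shown because a polymerase anchor lay over both of them in each genotype. The 250 bases before each start come from RefSeq, build GRCm38.p6, and read 5′ to 3′ on the strand of the gene. Capitals mark CCGCCC or its complement GGGCGG (a GC box) and CACCC or its complement GGGTG, searched on both strands. The Klf4 stretch is chr4:55532476-55532725 (minus strand) and the Klf2 stretch is chr8:72318812-72319061 (plus strand).
Klf4: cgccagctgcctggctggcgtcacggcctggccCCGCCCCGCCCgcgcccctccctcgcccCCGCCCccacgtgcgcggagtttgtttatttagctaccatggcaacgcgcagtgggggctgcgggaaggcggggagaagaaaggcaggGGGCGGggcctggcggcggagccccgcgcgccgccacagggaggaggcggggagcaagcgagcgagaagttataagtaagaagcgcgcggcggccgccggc
Klf2: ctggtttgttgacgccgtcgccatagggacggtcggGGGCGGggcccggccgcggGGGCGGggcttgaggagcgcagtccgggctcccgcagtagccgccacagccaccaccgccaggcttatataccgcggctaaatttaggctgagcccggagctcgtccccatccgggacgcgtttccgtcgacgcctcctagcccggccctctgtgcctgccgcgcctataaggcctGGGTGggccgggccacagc
Klf4 held 4 GC boxes, of which the first and second overlap by a single base, and no CACCC. Klf2 held 2 GC boxes and 1 CACCC. Of 32851 promoters of the same length, 32.7% held a GC box and 52.0% a CACCC, and 4.09% held at least 4 GC boxes. G and C made up 74.0% of the Klf4 stretch and 71.2% of the Klf2 stretch. The promoter table matched 2 of the 3 genes, without Klf5.

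Gene counts summed to between 8287497 and 8448519 in the KO libraries and between 9020599 and 9762190 in the WT libraries. In the HiChIP pools, KO held 401726 PETs in 118475 anchor pairs and WT held 35189 PETs in 19914. Levels are given as CPM, counts scaled to the TMM-adjusted library size, which are not divided by gene length and so were compared between libraries and never between genes. Expression was tested with edgeR's quasi-likelihood test over all 15517 genes that passed its filter, and FDR is the Benjamini-Hochberg adjusted p over all of them, with a threshold of 0.05. Of these genes, 8.3% were called in either direction, 2.96% higher and 5.34% lower in KO. An unadjusted p under 0.05 in edgeR was reached by 3780 of the 15517, the background for counts at that p given below. Of the 3 genes described here, 1 was called, which was Klf4 itself.

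Klf4 (ENSMUSG00000003032, chromosome 4, 55527137 to 55532475, mm10) had 0 counts in both KO libraries, against 2882 and 2421 counts in WT libraries 1 and 2. The loss of its RNA matches the genotype labels of all 4 libraries. In bulk RNA, fewer cells of a type and less RNA per cell cannot be told apart. The WT libraries stood at 306 and 263 CPM. A group at 0 gives only a bound, and against 3 counts over both KO libraries Klf4 was at least 1594-fold lower in KO (edgeR FDR 1.9e-04). The WT libraries differed 1.16-fold for Klf4, and 70.7% of the 10003 genes with a mean of at least 10 CPM differed more between them. In all, 6 genes, counting Klf4, had 0 counts in both KO libraries and a WT mean of at least 10 CPM. The others were Gm44722 and the Y-linked genes Eif2s3y, Ddx3y, Uba1y and Uty. KO and WT libraries thus differed in Y-linked RNA as well as in Klf4. The part of this in the other KO to WT differences was not tested.

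Klf2 (ENSMUSG00000055148, chromosome 8, 72319062 to 72321654) was present in every library and was not called. It measured 377 and 213 CPM in KO libraries B and F, against 217 and 326 CPM in WT libraries 1 and 2. The groups overlapped, and the difference inside each genotype was larger than that between them. The means were 295 ± 116 CPM in KO and 271 ± 76.6 CPM in WT (SD, n = 2 each). This gave a log2 fold change of 0.12 with a standard error of 0.34 (95% interval -0.65 to 0.89, edgeR FDR 0.86). On the linear scale the interval runs from 0.637-fold to 1.86-fold.

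Klf5 (ENSMUSG00000005148, chromosome 14, 99298691 to 99313412) was also retained and not called. It measured 64.6 and 129.8 CPM in KO libraries B and F, against 117 and 43.5 CPM in WT libraries 1 and 2. The groups overlapped here too, with KO library F and WT library 1 high and KO library B and WT library 2 low. Means were 97.2 ± 46.1 CPM in KO and 80.2 ± 51.9 CPM in WT (SD, n = 2 each), a log2 fold change of 0.28 with a standard error of 0.48 (95% interval -0.82 to 1.37, edgeR FDR 0.77). On the linear scale this interval spans 0.566-fold to 2.59-fold. Klf5 passed the threshold as higher in KO once WT library 1 was left out (log2 fold change 1.15). Among the fits leaving out a library, that fit had the most calls over all genes. The sign turned to a log2 fold change of -0.30 in the fit lacking WT library 2 (edgeR FDR 0.68) and in the fit lacking KO library F (edgeR FDR 0.90).

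**Figure D1:**
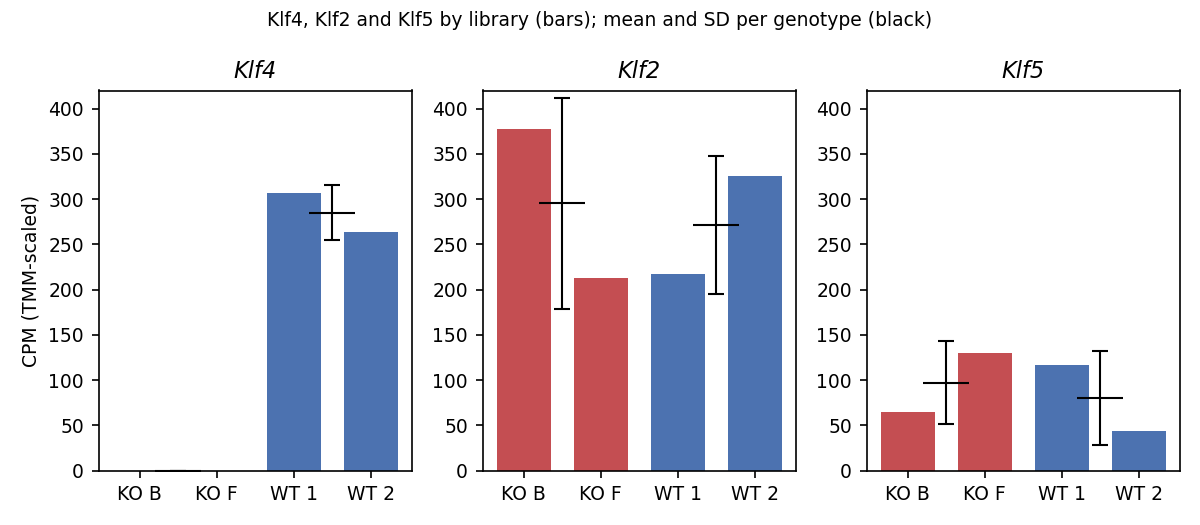
CPM of Klf4, Klf2 and Klf5 in KO libraries B and F (red bars) and WT libraries 1 and 2 (blue bars), with the mean and SD of each genotype in black (n = 2 each). Klf4 is at 0 in both KO libraries, whereas for Klf2 and Klf5 the KO and WT libraries overlap.

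The sign of both paralogs rested on single libraries. The log2 fold change of Klf2 turned to -0.35 without KO library B (edgeR FDR 0.80) and to -0.15 without WT library 1 (edgeR FDR 0.80). It stood at 0.48 without KO library F (edgeR FDR 0.78) and 0.41 without WT library 2 (edgeR FDR 0.53). Across other scalings, filters, DESeq2 and limma voom with all 4 libraries, Klf2 stayed between 0.09 and 0.15 and Klf5 between 0.27 and 0.36, with no call.

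**Figure D2:**
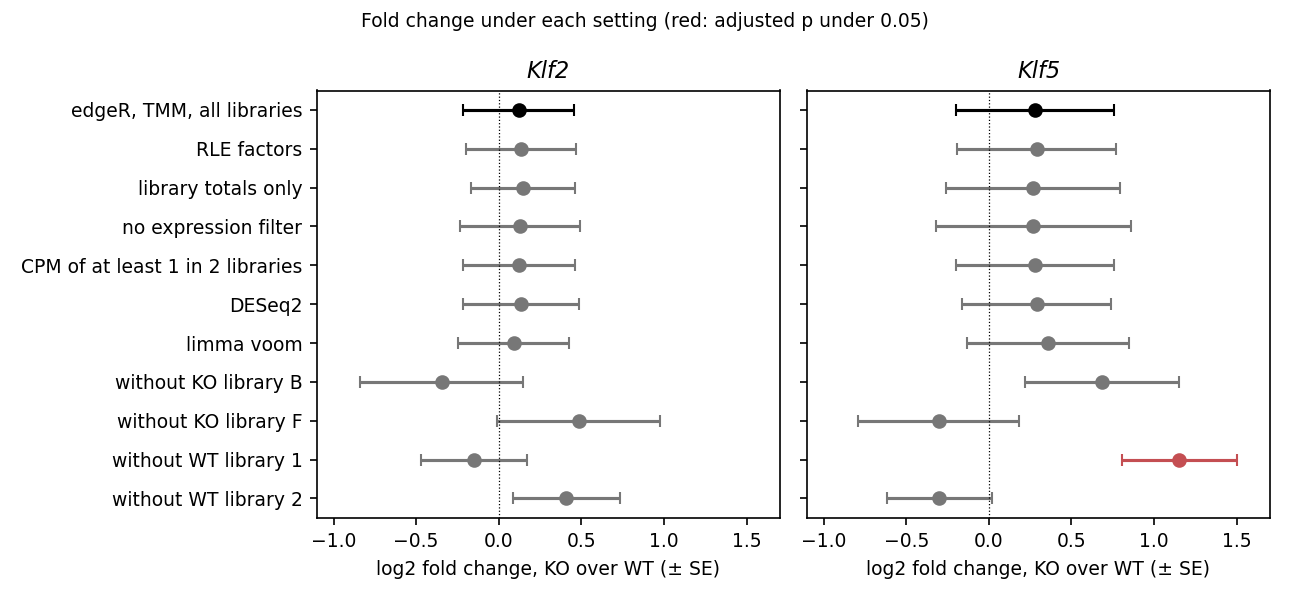
Log2 fold change of Klf2 and Klf5, KO over WT, with its standard error, under each setting from the edgeR fit on all libraries (top, black) to fits that leave out 1 library. Settings with all 4 libraries give nearly the same value, whereas leaving out a library moves Klf2 between -0.35 and 0.48 and Klf5 between -0.30 and 1.15. Of all settings shown, Klf5 without WT library 1 alone is past the threshold (red).

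Inside each genotype Klf2 and Klf5 moved in opposite directions. Klf5 differed 2.01-fold between KO libraries F and B and 2.69-fold between WT libraries 1 and 2, and it was higher in KO library F and WT library 1. Klf2 differed 1.77-fold between the KO libraries and 1.50-fold between the WT libraries, and it was higher in KO library B and WT library 2. Of the 10003 genes with a mean of at least 10 CPM, 2.77% differed more than Klf5 between the KO libraries and 0.96% between the WT libraries, and for Klf2 these shares were 6.14% and 28.9%. Over the same genes the difference of KO library F from B correlated with the difference of WT library 1 from 2 at r = 0.65, and 76.2% of the genes had the same sign in both. These values are across genes, which are not independent replicates. The labels give nothing that ties a KO library to a WT library, and the part of this shared difference in the values of Klf2 and Klf5 was not tested.

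**Figure D3:**
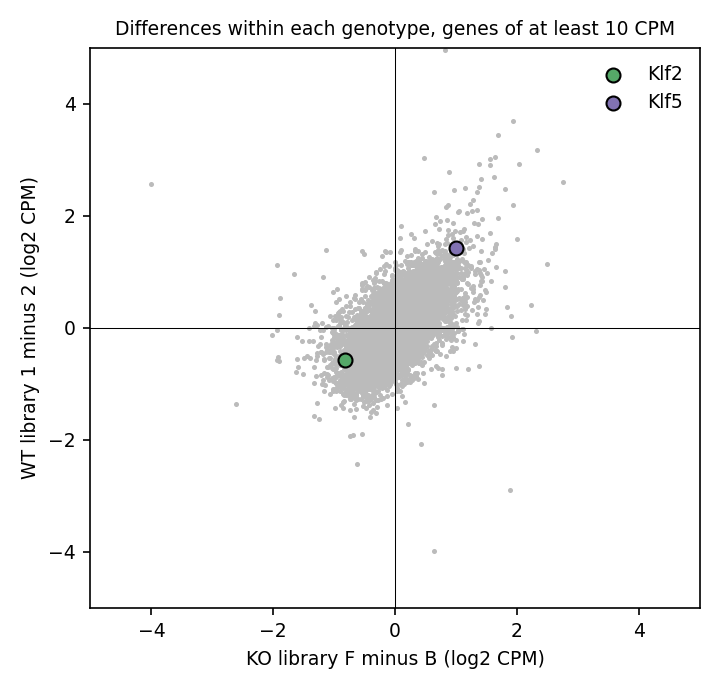
Difference in log2 CPM between the KO libraries (F minus B, horizontal) and between the WT libraries (1 minus 2, vertical) for 10003 genes with a mean of at least 10 CPM (grey). Klf5 lies in the upper right and Klf2 in the lower left of a cloud with r = 0.65.

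The genes most alike in pattern were taken as those with the smallest root mean square difference in centred log2 CPM over the 4 libraries. For Klf4 these were Eif2s3y (0.86), Ddx3y (1.26), Trpm1 (2.03), Bhmt (2.19) and Uty (2.23), all at or near 0 in KO. For Klf2 they included Dctn6 (0.038), Hras (0.040), Arhgdig (0.043) and Mfsd13a (0.046). For Klf5 they were Zfp329 (0.035), Ncoa4 (0.061), Dync2h1 (0.062), Pdpk1 (0.071) and Cnksr2 (0.074). Since they were picked for matching Klf2 or Klf5 over the same 4 libraries, their KO to WT differences are those of the gene they match.

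All 19 genes for signals and factors known to act on Klf4, Klf2 and Klf5 were measured. Of them 2 were lower, none higher and 17 not called, against 5.34% lower and 2.96% higher over all tested genes. The median log2 fold change was -0.02 against 0.00 over all tested genes. STAT3, which carries the LIF signal to Klf4, is encoded by Stat3, at 103 and 109 CPM in KO and 113 and 95.7 CPM in WT (log2 fold change 0.02, edgeR FDR 0.97). Tcf7l1, for a repressor on the WNT side of the naive network, measured 61.1 and 70.5 CPM in KO and 109 and 117 CPM in WT (log2 fold change -0.78, edgeR FDR 0.082). The 2 called genes are both transcription factor genes of the naive network. Tfcp2l1 fell 3.73-fold to 203 and 274 CPM in KO, against 1061 and 721 CPM in WT (edgeR FDR 0.011). Tbx3 fell 2.29-fold to 126 and 169.6 CPM in KO, against 379 and 298 CPM in WT (edgeR FDR 0.032), a call lost without KO library B (edgeR FDR 0.29) or KO library F (edgeR FDR 0.096).

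Among genes described as bound or activated by KLF factors in mouse embryonic stem cells, 1 of 12 rose, 1 fell and 10 were not called. Their median log2 fold change was 0.19, and over all tested genes 2.96% were higher and 5.34% lower. Mycn, a MYC family gene, rose 2.67-fold to 171 and 167 CPM in KO, against 69.0 and 57.6 CPM in WT (edgeR FDR 0.012). Fbxo15, an early marker of pluripotent cells, fell 1.99-fold to 130.4 and 108 CPM in KO, against 233 and 244 CPM in WT (edgeR FDR 0.038). The Fbxo15 call was lost without KO library B (edgeR FDR 0.20) or KO library F (edgeR FDR 0.45). Nanog, a core pluripotency gene, stood at 621 and 572 CPM in KO and 784 and 774 CPM in WT (log2 fold change -0.39, edgeR FDR 0.39). Esrrb, an orphan nuclear receptor gene, stood at 602 and 582 CPM in KO and 778 and 662 CPM in WT (log2 fold change -0.28, edgeR FDR 0.54). Both had KO libraries below both WT libraries without passing the test, a separation that 53.5% of tested genes showed in one direction or the other. Pou5f1 (log2 fold change 0.04, edgeR FDR 0.95) and Sox2 (0.16, edgeR FDR 0.74), the genes of the core factors OCT4 and SOX2, were not called.

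Genes described as KLF targets in other cell types were counted apart. Of 13 measured out of 15 listed, 4 rose, 3 fell and 6 were not called, at a median log2 fold change of -0.24. The shares over all tested genes were 2.96% higher and 5.34% lower. This list, like the others, was chosen with earlier results of these data known, so its counts are a description. Cdkn1a encodes p21, a brake on the cell cycle that KLF4 activates in epithelia, and it fell 5.63-fold to 48.0 and 30.6 CPM in KO, against 201 and 242 CPM in WT (edgeR FDR 0.0039). Its relative Cdkn1c rose 8.14-fold to 48.0 and 19.7 CPM in KO, against 3.40 and 4.89 CPM in WT (edgeR FDR 0.011). Its log2 fold change was 3.03, and 2.24 without KO library B. Ccne1, which encodes cyclin E1 and is known to be held down by KLF4, rose 2.66-fold to 259 and 271 CPM in KO, against 86.8 and 112 CPM in WT (edgeR FDR 0.014).
Odc1, the gene of ornithine decarboxylase, rose 2.04-fold to 799.6 and 826 CPM in KO, against 419 and 376 CPM in WT (edgeR FDR 0.040). This call was lost without KO library B (edgeR FDR 0.22), KO library F (edgeR FDR 0.30) or WT library 2 (edgeR FDR 0.073). Nos3, endothelial nitric oxide synthase and a KLF2 target of endothelium, rose 3.38-fold at low levels, with 10.3 and 7.22 CPM in KO and 2.55 and 2.61 CPM in WT (edgeR FDR 0.043). Nos3 fell short of the threshold without KO library B (edgeR FDR 0.17), WT library 1 (edgeR FDR 0.052) or WT library 2 (edgeR FDR 0.070). S1pr1, a KLF2 target of T cells, fell 18.0-fold to 0.12 and 0.47 CPM in KO, against 5.42 and 5.76 CPM in WT (edgeR FDR 0.011). The KO values of S1pr1 rest on 1 and 4 counts, and its log2 fold change of -4.17 moved to -5.38 without KO library F and to -3.52 without KO library B. Pdgfa, a growth factor gene that KLF5 activates in smooth muscle, fell 3.63-fold to 28.5 and 35.7 CPM in KO, against 98.0 and 135 CPM in WT (edgeR FDR 0.0087). Trp53 (log2 fold change -0.27, edgeR FDR 0.55) and Ccnd1 (0.22, edgeR FDR 0.62), both known to be repressed by KLF4 elsewhere, were not called.

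Elsewhere in the KLF and SP family, 1 of 19 measured genes rose, 1 fell and 17 were not called, out of 23 listed. Their median log2 fold change was 0.09, and 2.96% of all tested genes were higher and 5.34% lower. Sp5, a WNT-responsive family gene, fell 18.3-fold to 1.20 and 0.47 CPM in KO, against 11.8 and 19.3 CPM in WT (edgeR FDR 0.0057). The KO values of Sp5 rest on 10 and 4 counts, and its log2 fold change of -4.19 moved to -4.99 without KO library B. Sp8, known from limb and forebrain development, rose 9.99-fold to 5.51 and 2.25 CPM in KO, against 0.53 and 0.22 CPM in WT (edgeR FDR 0.032), a call that limma voom did not make (adjusted p 0.052) and that was lost without KO library B (edgeR FDR 0.18). The log2 fold change of Sp8 was 3.32, against 2.54 without KO library B and 4.06 without WT library 1. Of the KLF genes themselves other than Klf4, none was called in edgeR with all libraries. Klf13 came nearest, at 35.3 and 44.2 CPM in KO and 73.5 and 67.4 CPM in WT (log2 fold change -0.83, edgeR FDR 0.088). Klf17, a family member of the early human epiblast, had 4 counts in each KO library and 1 and 0 counts in WT, under the filter. The number of higher family members rose without WT library 1, which among the fits leaving out a library had the most calls over all genes. DESeq2 called 2 of the family higher and 2 lower, and limma voom called none higher and 1 lower.

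Enzymes that remove or modify the proteins were not called at the RNA level. Of 9 listed, 8 were measured, at a median log2 fold change of -0.19. They had 0 calls in edgeR, DESeq2 and limma voom and 2 at an unadjusted p of 0.05 in edgeR. Over all 15517 tested genes, 3780 were at that p. Wwp1, for a ubiquitin ligase of KLF5, measured 30.1 and 40.5 CPM in KO and 79.0 and 44.4 CPM in WT (log2 fold change -0.81, edgeR FDR 0.19). RNA counts carry no measure of protein stability.

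Embryonic stem cell markers were expressed in all 4 libraries. Summed over 8 genes they came to 8001 and 7125 CPM in KO and 6603 and 8590 CPM in WT, with 0 calls in edgeR and limma voom, 1 at an unadjusted p of 0.05 in edgeR and 1 call in DESeq2. The 10 fibroblast and feeder markers summed to 23.5 and 17.9 CPM in KO and 25.4 and 25.8 CPM in WT, and Postn, Lum and Fap had 0 counts in every library. None of their 3 measured genes was called in edgeR, DESeq2 or limma voom, with 2 at an unadjusted p of 0.05 in edgeR. That p was reached by 3780 of the 15517 genes tested. The 8 primitive endoderm markers summed to 40.0 and 49.4 CPM in KO and 23.5 and 19.3 CPM in WT. Of 4 measured, 3 were at an unadjusted p of 0.05 in edgeR (median log2 fold change 0.84). Of these 4, 2 were called higher, against 2.96% of all tested genes. The called genes were Gata6, at 2.99 and 2.84 CPM in KO and 0.43 and 0.33 CPM in WT (edgeR FDR 0.026), and Col4a1 (edgeR FDR 0.033). Sox17 stayed at or under 1.07 CPM. The 8 trophoblast markers summed to 145 and 78.9 CPM in KO and 95.1 and 110.0 CPM in WT. Of 5 measured, 2 were at an unadjusted p of 0.05 in edgeR (median log2 fold change 0.23). Only 1 of the 5 was called higher, Hand1 (edgeR FDR 0.039), and Cdx2 stood at or under 0.60 CPM. The Gata6 call was lost without KO library B (edgeR FDR 0.081), KO library F (edgeR FDR 0.068) or WT library 2 (edgeR FDR 0.079), and the Col4a1 call without KO library F (edgeR FDR 0.13). The Hand1 call was lost in DESeq2 (adjusted p 0.10), in limma voom (adjusted p 0.058) and without any 1 of the libraries (edgeR FDR 0.063 to 0.27). The part of such cells in the values of Klf5, a gene also known from trophectoderm, was not tested.

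Around Klf4 no measured neighbour was called. Within 1 Mb only Rad23b and Zfp462 passed the filter, with 0 calls in edgeR, DESeq2 and limma voom and 1 at an unadjusted p of 0.05 in edgeR. Rad23b, a DNA repair and proteasome shuttle gene 135 kb away, measured 327 and 419 CPM in KO and 348 and 257 CPM in WT (log2 fold change 0.30, edgeR FDR 0.54). The non-coding gene Gm12506, whose nearest edge lies 0.235 kb from the start of Klf4, had 0 counts in every library. Zfp462, for a zinc finger protein, stood at 98.3 and 159 CPM in KO and 83.3 and 37.4 CPM in WT (log2 fold change 1.09, edgeR FDR 0.14).

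Around Klf2, 44 genes within 1 Mb were measured, at a median log2 fold change of 0.03. Against 2.96% higher and 5.34% lower over all tested genes, 1 of the 44 rose and 1 fell. The 2 were Bst2 (log2 fold change 1.60, edgeR FDR 0.049) and Colgalt1 (-1.02, edgeR FDR 0.038), at 782 kb and 694 kb from Klf2. The Bst2 call was not made by limma voom (adjusted p 0.054) or with the CPM filter (edgeR FDR 0.0505), and it was lost when KO library B was left out (edgeR FDR 0.18). The Colgalt1 call was lost with library totals in place of TMM (edgeR FDR 0.057), and also without KO library B (edgeR FDR 0.35) or KO library F (edgeR FDR 0.23). Nearer genes were not called, such as Eps15l1 at 19.3 kb (log2 fold change -0.06, edgeR FDR 0.91), Ap1m1 at 61.7 kb (0.05, edgeR FDR 0.92) and Fam32a at 94.0 kb (0.42, edgeR FDR 0.38). Within 200 kb the other measured genes were Tpm4, Rab8a, Gm10282, Calr3, 1700030K09Rik, Cherp, Slc35e1 and Med26, and none was called (edgeR FDR 0.095 to 0.93 over all 11).

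Around Klf5, 6 genes were measured within 1 Mb, with 0 calls in edgeR, DESeq2 and limma voom and 1 at an unadjusted p of 0.05 in edgeR. For Pibf1, the nearest at 43.8 kb, the log2 fold change was -0.26 (edgeR FDR 0.76), and for Dis3 at 199 kb it was 0.00 (edgeR FDR 1.00). The chromosome as a whole stood lower in KO. Its 467 tested genes had a median log2 fold change of -0.63, against -0.04 on chromosome 4 and 0.01 on chromosome 8. Of the 467, 16 were higher and 82 lower, against 2.96% higher and 5.34% lower over all tested genes. Within 5 Mb of Klf5 the median over 16 other genes was -0.50. Klf5, at 0.28, stood above 82.7% of the tested genes of chromosome 14.

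Contacts of RNA polymerase II were compared as shares of all PETs in each pool, since the KO pool was the deeper. A PET was counted for a gene when either of its anchors lay over the gene or within 100 kb of it. With 1 pool per genotype there is no test, and the 95% intervals below are exact binomial ones that cover counting error only. Over 7232 protein-coding genes with at least 10 such PETs in WT, the median log2 ratio of shares, KO over WT, was -0.70. The share was at least 2-fold higher in KO for 8.46% of these genes and at least 2-fold lower for 38.3%. Keeping genes by WT PETs alone leaves out genes low in WT, which lowers these ratios. Neighbouring genes share PETs, and anchors were listed separately in each pool, with a median width of 2932 bp in KO and 1999 bp in WT. The anchors covered 66996 kb in KO and 18973 kb in WT, so sums over a window move with how much was listed. A share per kb of anchor is for the same reason lower in KO over the pool as a whole. Numbers of anchors or pairs cannot be compared between pools of such different depth.

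At Klf4 the PETs lay away from the gene in KO and over the gene in WT. The window held 79 PETs in 29 anchor pairs in KO and 11 PETs in 8 pairs in WT. These are 19.7 per 100000 PETs in KO (15.6 to 24.5) and 31.3 in WT (15.6 to 55.9), a ratio of 0.629 (0.333 to 1.31), and 50.9% of genes had a lower ratio. Anchors covered 23.2 kb of the window in KO and 6.22 kb in WT, and per kb of anchor the shares were 0.846 in KO and 5.03 in WT. A single anchor in each pool overlapped the gene. The KO anchor there (55529347 to 55535783) held 2 PETs and the WT anchor (55531324 to 55533475) held 7. As shares, these were 0.498 and 19.9 per 100000, a ratio of 0.025 with a counting interval of 0.0025 to 0.13. Over anchors that touch a gene, 62.1% of 3719 genes with at least 5 WT PETs were at least 2-fold lower in KO and 5.24% at least 2-fold higher, with a median ratio of 0.375. Of those genes, 6.08% had a lower ratio than Klf4. They were again kept on WT PETs alone, which leaves out genes low in WT and lowers the ratios kept. Klf4, kept by its 7 WT PETs, shares this limit, so its rank is a description. Both anchors at Klf4 reach beyond its start, so the 2 KO and 7 WT PETs cannot be placed inside or outside the gene.

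Most KO PETs of the Klf4 window belonged to an anchor 11.8 kb wide that starts 45.7 kb beyond the 3′ end of the gene (55469584 to 55481409). It held 71 PETs, of which 38 joined the anchor to itself and 33 went to 21 other anchors. Clusters of enhancers on this side of Klf4 are known from mouse embryonic stem cells. The anchor had 4 PETs to one at the start of Rad23b and 5 to a neighbouring anchor 62.0 kb from Klf4, and none to the anchor over Klf4. No WT anchor overlapped it, while the neighbouring anchor had a counterpart in WT with 4 PETs, 2 of them to the anchor over Klf4. In KO the neighbouring anchor had 12 PETs, 1 of them to the anchor over Klf4. In WT 2 more PETs joined the Klf4 anchor with one at 0.288 kb from its 3′ end, and 1 PET joined it with the start of Nipsnap3b, 2521 kb away.

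At Klf2 the share of PETs was lower in KO, as it was at the median gene. The log2 ratio of Klf2 was -1.15, against a median of -0.70 over the 7232 genes. Of those genes, 38.3% were at least 2-fold lower in KO. The window held 154 PETs in 99 anchor pairs on 9 anchors in KO, against 30 PETs in 11 pairs on 3 anchors in WT. The shares were 38.3 per 100000 in KO (32.5 to 44.9) and 85.3 in WT (57.5 to 122), a ratio of 0.45 (0.303 to 0.689), and 32.8% of genes had a lower one. Anchors covered 28.2 kb in KO and 11.3 kb in WT, with shares per kb of anchor of 1.36 in KO and 7.54 in WT. The anchor over the gene had 47 PETs in KO (72315597 to 72321172), 7 of them joining it to itself. In WT it had 27 PETs (72317488 to 72325721), 20 of them joining it to itself. The share of this anchor was 11.7 per 100000 in KO and 76.7 in WT, a ratio of 0.152 (0.093 to 0.255), with 17.9% of genes lower.
In KO the Klf2 anchor had 6 PETs to an anchor 11.2 kb downstream, 4 to one 31.1 kb downstream and 3 to one 41.2 kb downstream, the last 2 inside Eps15l1. It had 3 PETs to an anchor 6.71 kb upstream. None of these 4 anchors overlapped a WT anchor. In WT the Klf2 anchor reached the window's other anchors with 0 PETs, which allows up to 3 of 35189 PETs, or 8.53 per 100000. The KO share of such PETs, 19 of 401726 or 4.73 per 100000, lies under that limit, so a difference was not detectable at the WT depth. Its 7 PETs to other anchors went outside, 1 each, among them to anchors at the starts of Smim7 and Tmem38a, Mcm5, Smad1 and Dnase2a. The anchor at Smim7 and Tmem38a, 251 kb away in WT, was also joined to Klf2 by 1 PET in KO. Those at Mcm5, Smad1 and Dnase2a lay 2788, 7078 and 12587 kb away. A single PET at such a distance does not establish a contact. Dnase2a, for a lysosomal nuclease, fell 2.39-fold to 26.7 and 23.8 CPM in KO, against 47.2 and 73.5 CPM in WT (edgeR FDR 0.040). That call was not made by limma voom (adjusted p 0.051) and was lost without KO library B (edgeR FDR 0.11), KO library F (edgeR FDR 0.19) or WT library 2 (edgeR FDR 0.081). Smim7 (edgeR FDR 0.79), Tmem38a (0.12), Mcm5 (0.83) and Smad1 (0.79) were not called.

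At Klf5 the window took a larger share of PETs in KO, over a longer stretch of listed anchors. The window held 642 PETs in 82 anchor pairs on 8 anchors in KO, against 14 PETs in 9 pairs on 4 anchors in WT. The shares were 159.8 per 100000 in KO (148 to 173) and 39.8 in WT (21.8 to 66.7), a ratio of 4.02 (2.38 to 7.39). A higher ratio was seen in 1.85% of genes. Anchors covered 50.5 kb in KO and 10.1 kb in WT, and per kb of anchor the share was 3.17 in KO and 3.94 in WT. Per kb of anchor the KO share was thus not the higher one. That measure is lower in KO over the pool as a whole, so it does not show the higher sum to be absent. The gap between KO and WT per kb was smaller than at Klf4 (0.846 and 5.03) and at Klf2 (1.36 and 7.54). Of the PETs, 91.0% in KO and 71.4% in WT stayed inside the window. In KO 30 of 36 possible combinations of the 8 anchors were seen, self pairs included, and in WT 5 of 10. These counts move with depth and cannot be compared between the pools.
The KO anchor over Klf5 was 19.0 kb wide (99297128 to 99316131), covered the whole gene and held 268 PETs, 142 of them joining it to itself. In WT 3 narrower anchors lay over the gene, and together they held 13 PETs. Their share was 66.7 per 100000 in KO and 36.9 in WT, a ratio of 1.81 (1.04 to 3.44), with 6.35% of genes higher.
On the side of higher coordinates a row of anchors followed in KO. The anchors at 7.16, 17.1, 25.8 and 33.3 kb held 203, 195, 102 and 106 PETs, and the Klf5 anchor had 32, 29, 12 and 20 PETs to them. The most PETs between 2 different anchors, 67, joined the anchors at 7.16 and 17.1 kb. Only the one at 33.3 kb overlapped a WT anchor, which held 2 PETs, 1 of them to Klf5. Further off, the KO anchor over Klf5 had 4 PETs to an anchor at the start of Mzt1, 260.3 kb away, and 1 to one at the shared start region of Dis3 and Pibf1, which in WT had 2 PETs to anchors over Klf5. In WT single PETs also joined Klf5 with the starts of Spry2 and Commd6, 6600 and 2333 kb away. None of these 5 partner genes was called (edgeR FDR 0.16 to 1.00).

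**Figure D4:**
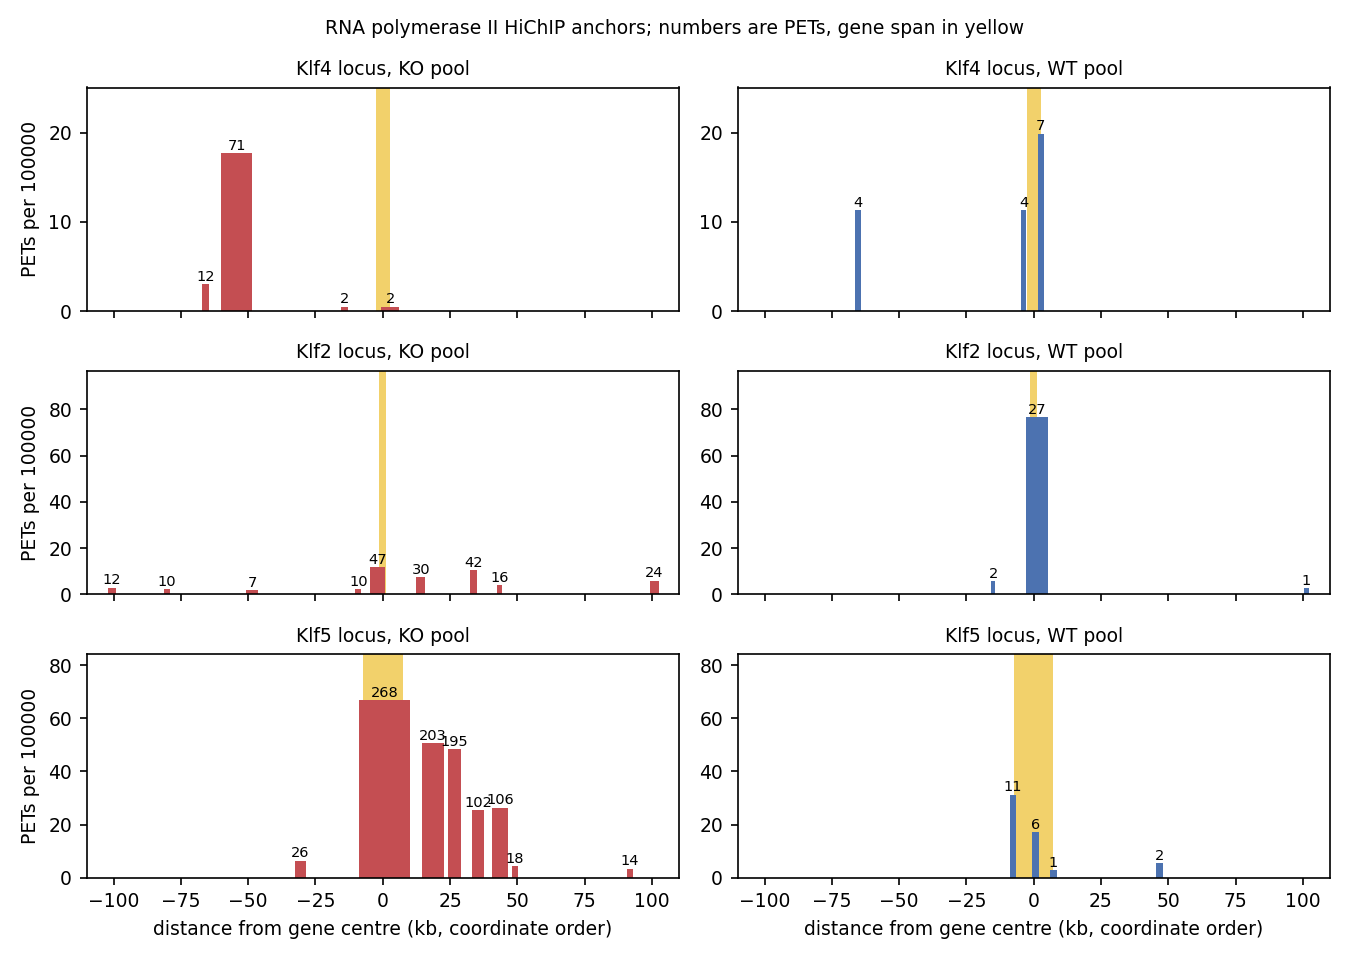
Anchors within 100 kb of Klf4, Klf2 and Klf5 (rows) in the KO pool (left, red) and the WT pool (right, blue), by distance from the gene's centre in kb in coordinate order, with bar width showing anchor width, height the PETs touching each anchor per 100000 PETs of the pool, and numbers the PETs themselves. KO PETs at Klf4 sit on the 11.8 kb anchor beyond its 3′ end, while at Klf5 they fill the gene and the anchors that follow it.

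**Figure D5:**
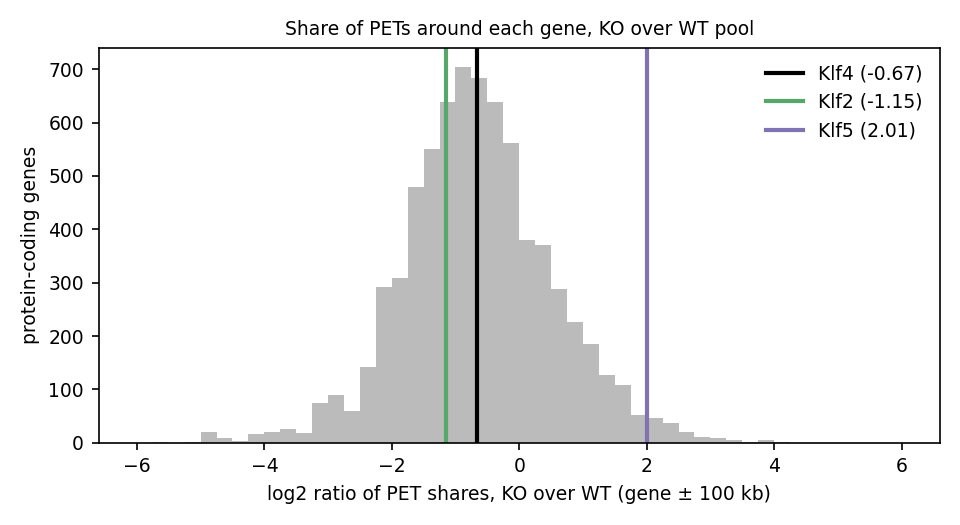
Log2 ratio of PET shares, KO over WT, for the window of each of 7232 protein-coding genes with at least 10 WT PETs (grey, number of genes; 10 genes with no KO PET are not drawn). Klf4 at -0.67 lies near the median of -0.70, Klf2 at -1.15 below it and Klf5 at 2.01 near the upper end.

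These ratios carry the setting of the window and the chromosome. Within 10 kb in place of 100 kb, Klf4 had 2 PETs in KO and 9 in WT, a ratio of 0.019, and Klf2 one of 0.175. When anchor pairs were counted in place of PETs, a measure that moves with depth, the Klf2 ratio was 1.51 (0.810 to 3.13) and that of Klf5 1.53 (0.769 to 3.47). Relative to the PETs of their own chromosome, the ratios were 0.557 for Klf4, 0.521 for Klf2 and 2.93 for Klf5. Chromosome 14 as a whole took 2.71% of PETs in KO and 1.97% in WT, a ratio of 1.37.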

How the data were processed

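RNA-seq and RNA polymerase II HiChIP were measured in E14 cells, KLF4-KO and WT. The authors deposited gene counts made with HTSeq 0.9.1 after HISAT2 2.1.0 alignment, and DESeq2 1.18.1 is also named, per the submitters' processing notes. These notes also list HiC-Pro 2.11.4 and mm10, and the deposited HiChIP counts are PETs per anchor pair with the replicates of a genotype in 1 file. No source used here gives the annotation release, strand setting, loop caller or anchor definition. Genes held 35.1 to 36.0% of HTSeq records in KO and 34.5 to 35.4% in WT. The rows for reads without a gene hold the rest, 37.2 to 40.5% of records under "no feature" alone, and entered neither library sizes nor tests. Symbols matched 52403 of 52636 identifiers, and 14139 tested genes had a position in RefSeq GRCm38.p6, the assembly of mm10.

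Counts were tested in R 4.3.3 with edgeR 4.0.16 (filterByExpr, TMM, glmQLFit and glmQLFTest, KO against WT, Benjamini-Hochberg adjustment over 15517 genes). The fit estimated a common biological coefficient of variation of 0.256 and had 2 residual degrees of freedom. Separate cultures are not described, so p-values measure the spread between these libraries. Alternatives were RLE factors, library totals, other filters, DESeq2 1.42.0, limma voom (limma 3.58.1) and leaving out each library. An exact permutation test of 2 against 2 libraries cannot go below 0.333. On simulated counts for this comparison, over 15111 genes, edgeR recovered 24 of the 100 genes given a 2-fold change and 94 of the 100 given a 4-fold change, with 2 false calls. PET shares have exact 95% intervals (scipy 1.17.1). The pools lack replicates, so they were not tested, and intervals and limits for a count of 0 (3 counts) cover counting error only.

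Named genes were the 3 genes, listed genes that were called, fixed genes of the naive network, measured neighbours, the 5 genes most alike to each (1 of them is not reported here), and genes at anchors joined to a gene by at least 3 PETs in KO or 1 in WT. Klf13, Klf17, Wwp1, Trp53, Ccnd1, Zfp462, Bst2, Colgalt1, single marker genes and the genes at 0 in KO were named after their values were seen. The members and gene lists were chosen with earlier results of these data known.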

Additional observations from a re-analysis of the deposited data

How the results depend on the processing

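No paired analysis was possible because the KO columns carry letters and no replicate numbers. Klf4 was called lower in every setting run except that without an expression filter, where its log2 fold change was -14.30 with an edgeR FDR of 0.073. That setting left 2 genes past the threshold (4021 at an unadjusted p of 0.05), against 1288 with the filter (3780). It ended every call on a listed gene. Leaving out 1 library gave log2 fold changes of -0.35 to 0.48 for Klf2 and of -0.30 to 1.15 for Klf5, and 1013 to 2517 genes past the threshold, the highest count being without WT library 1. For PET shares, KO over WT, a window of 10 kb gave 0.019 for Klf4 and 0.175 for Klf2, and pairs of at least 2 PETs gave 0.231 for Klf2. Counting anchor pairs in place of PETs, a measure that moves with depth, gave 1.51 for Klf2, on the other side of 1, and 1.53 for Klf5. The other 13 of 18 share alternatives stayed within the counting interval. The cause of these changes was not tested. With 2 libraries a genotype, 2-fold changes are often missed, and the WT pool limits the contacts, with 11 PETs at Klf4, 30 at Klf2 and 14 at Klf5.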

Other observations

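Across the 10003 genes with a mean of at least 10 CPM, 82 were at least 2-fold higher both in KO library F than in B and in WT library 1 than in 2, as Klf5 was. The reverse, at least 2-fold lower in both, held for 9 genes, and 4 genes were 2-fold apart in opposite directions. The Klf2 direction, at 1.5-fold or more in both genotypes, was seen in 319 genes. Klf2 itself fell just short of that limit in WT, at 1.499-fold. The library difference correlated across 9555 genes with the logarithm of a gene's genomic span at r = 0.36 in KO and 0.54 in WT. Genes are not independent replicates, and these values are a description.

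Along chromosome 14 the median log2 fold change was 0.30 in the first 20 Mb (37 genes), -0.22 from 20 to 40 Mb (104 genes), -0.75 from 40 to 60 Mb (146 genes) and -0.85 from 60 to 80 Mb (125 genes). It was -0.26 from 80 to 100 Mb, where Klf5 lies among 9 tested genes, -0.74 from 100 to 120 Mb (27 genes) and -1.20 from 120 Mb to the end (19 genes). Of these last 19 genes 2 were higher and 7 lower, against 2.96% higher and 5.34% lower over all tested genes.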
